A study of Mus musculus with 18 samples.

Results

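A set of 10 genes of the fibroblast growth factor (FGF) and ERK pathway was followed in cultured mouse astrocytes, the glial cells that support neurons. They are 2 ligands (Fgf1 and Fgf2), 3 ETS transcription factors (Etv1, Etv4 and Etv5), 4 membrane inhibitors of the pathway (Spry1, Spry2, Spry4 and Spred1) and 1 phosphatase of ERK (Dusp6), or 10 of the 26301 genes in the deposited count table. The genes were chosen by their place in the pathway and selected on results of these data, since lower Etv5 and Fgf1 in the day 7 co-culture had been seen, so their day 7 co-culture difference is described here without a test. Astrocytes were dissected from newborn (P0) cortex, kept for 2 weeks in serum medium and moved to N2 medium when confluent. In one arm they stayed alone, with no treatment. In the other they received hippocampal neurons from P0 mice positive for TdTomato, a red fluorescent protein. Collection was at day 2, 4 or 7, and cells were passed through a sorter that reads TdTomato, with the gate for negative cells set on control astrocytes, which leaves any neuron without the protein in the astrocyte gate. The labels give no strain and do not say whether cultures were pooled from several animals. There were 6 groups of 3 libraries, and the 6 libraries of a replicate number share 1 date in the labels. A pair below is the co-culture and the astrocytes-alone library of the same number and day.

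FGF ligands bind receptor tyrosine kinases together with heparan sulfate proteoglycans, and the receptor signals through adaptor proteins, RAS and the RAF, MEK and ERK kinases. Active ERK raises transcription of the ETS factors Etv1, Etv4 and Etv5 and relieves repression of several target genes by Capicua, a DNA-binding repressor. It also raises Sprouty and Spred proteins, which dampen signalling at RAS and RAF, and Dusp6, which removes phosphate from ERK in the cytoplasm, so that transcripts of these genes are widely used as a readout of the pathway. In brain, Fgf1 and Fgf2 are made by neurons and glia, lack a classical signal peptide, and act on astrocytes, which carry FGF receptors.

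Reads per library ran from 13950111 to 32623556 in 16 of the 18 libraries. Replicate 1 of astrocytes alone at day 2 had 3242459 reads, of which 92.5% fell on 1 gene without a symbol in the reference used, and the day 7 co-culture of replicate 1 had 8966485 reads, with 40.5% on mt-Rnr2, a ribosomal RNA of mitochondria. Values are given as scaled read counts (CPM, relative to library size) after TMM scaling, and the floor of 3 reads, which covers counting error only, corresponds to 20.2 CPM in the first of these libraries, 0.504 CPM in the second and 0.0743 to 0.179 CPM in the others. In the smallest library the 10 genes had 0 to 16 reads each, so its values, and the day 2 pair that holds it, are coarse. A further 23 genes, none of them among the 10, were without reads in 8 of the better-covered 16, although their median count in the others was 50 or more. All 10 genes passed the expression filter, as 10 of 16539 genes tested. Astrocyte markers were present in every library, at a summed 867 to 6642 CPM over 12 genes, but S100b had no read in 1 of 9 libraries of astrocytes alone and in 4 of 9 co-cultures.

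RefSeq promoters (build GRCm38.p6) were found for 7 of the 10 genes, with 9 start sites. The 250 bases before the start are shown for Dusp6, for Etv5 at its downstream start, and for Spry2, since the transcripts of these genes moved together from library to library. Capitals mark CGGAA, the core of ETS binding sites, or TGAATG, the first 6 letters of the Capicua octamer, on either strand (TTCCG and CATTCA on the other). Dusp6 lies at chr10:99262981-99263230 (plus strand), Etv5 at chr16:22438369-22438618 (minus strand) and Spry2 at chr14:105896820-105897069 (minus strand).
Dusp6: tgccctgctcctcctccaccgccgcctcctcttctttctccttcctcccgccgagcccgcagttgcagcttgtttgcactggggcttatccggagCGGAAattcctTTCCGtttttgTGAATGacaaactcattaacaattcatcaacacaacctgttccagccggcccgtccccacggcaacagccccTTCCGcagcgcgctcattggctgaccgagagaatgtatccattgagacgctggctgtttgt
Etv5: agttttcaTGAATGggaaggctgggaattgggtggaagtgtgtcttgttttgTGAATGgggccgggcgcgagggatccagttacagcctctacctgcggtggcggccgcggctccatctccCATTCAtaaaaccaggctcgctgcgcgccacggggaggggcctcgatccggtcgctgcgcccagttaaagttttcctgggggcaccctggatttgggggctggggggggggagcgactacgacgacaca
Spry2: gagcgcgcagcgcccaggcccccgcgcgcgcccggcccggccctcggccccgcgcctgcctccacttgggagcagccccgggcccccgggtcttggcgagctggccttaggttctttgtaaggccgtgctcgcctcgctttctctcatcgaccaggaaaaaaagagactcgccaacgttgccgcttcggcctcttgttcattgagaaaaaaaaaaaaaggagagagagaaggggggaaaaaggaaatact

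The Dusp6 stretch holds CGGAA 3 times, at 155, 144 and 61 bases before the start, and TGAATG once, at 133 bases. The Etv5 stretch holds TGAATG 3 times, at 242, 198 and 129 bases before the start, and no CGGAA, and its upstream start has neither. Neither is in the Spry2 stretch. CGGAA was in 2 of the 9 member promoters (Dusp6 and Spred1, there at 17 bases) against 25.2% of 32851 RefSeq promoters of the same length, and TGAATG in 2 of 9 (Dusp6 and Etv5) against 10.9%. The longer forms TGAATGAA and TGAATGGA of the Capicua octamer (in 1.08% and 1.01% of all promoters), the ETS site CCGGAAGT (2.88%) and the AP-1 site TGAGTCA (4.46%), searched on both strands, were in none of the 9. TGAATG was searched after the longer forms had been looked for, and lies within both octamers, as CGGAA lies within CCGGAAGT. These are matches of letters in a window, not measured binding.

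Per kilobase of exon, the 10 genes fell into an upper group of 5 and a lower group of 5. Over the 16 libraries left without the pair of poor ones, median levels were 26.1 CPM per kilobase for Spry2, 24.8 for Etv5, 22.9 for Fgf1, 21.1 for Dusp6 and 13.8 for Spred1, followed by 5.25 for Spry4, 4.12 for Etv4, 3.02 for Spry1, 0.943 for Fgf2 and 0.174 for Etv1. Spred1 was above Spry4 in 16 of 16 libraries. Among the 4 highest, order changed from library to library, Spry2 being above Etv5 in 8 of 16, Etv5 above Fgf1 in 9 and Fgf1 above Dusp6 in 8. Etv4 and Spry1 also changed places, with Etv4 above Spry1 in 7 of 16 libraries although its median was higher. Fgf1 stood above Fgf2, and Etv5 stood above Etv4 and Etv1 on the same per-length scale.

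**Figure D1:**
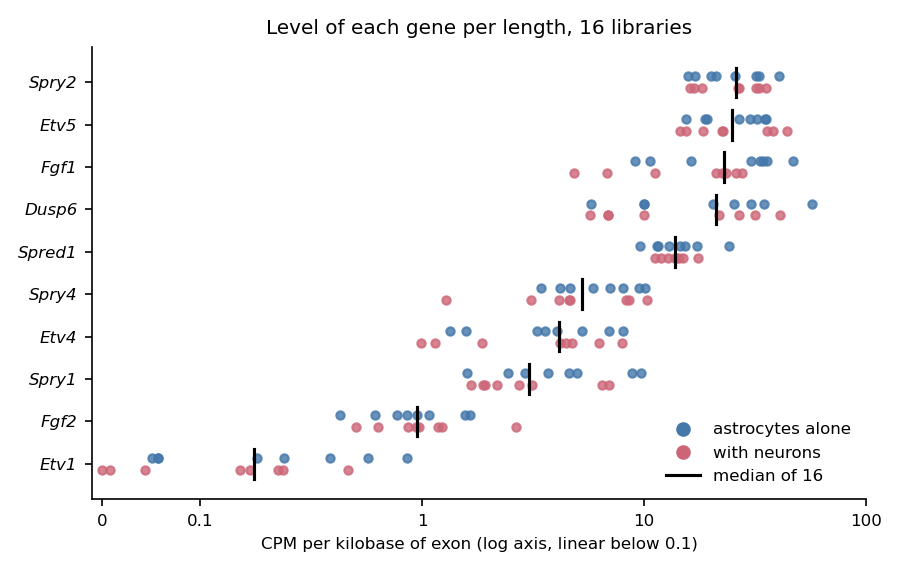
Level of each gene in CPM per kilobase of exon on a log axis (linear below 0.1), 1 point per library for the 16 libraries, with the median as a bar. Spry2, Etv5, Fgf1 and Dusp6 overlap at the top, and Etv1 lies lowest, with a median of 0.174.

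The span between libraries also differed from gene to gene. From the lowest to the highest of the 16 libraries, scaled CPM spanned 10.0-fold for Dusp6, 9.68-fold for Fgf1, 8.12-fold for Etv4, 8.06-fold for Spry4, 6.21-fold for Fgf2 and 6.09-fold for Spry1. Etv5, Spry2 and Spred1 spanned less, at 3.02-, 2.57- and 2.51-fold. Etv1 had no read in 1 of the 16 libraries and 1 read in another.

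**Figure D2:**
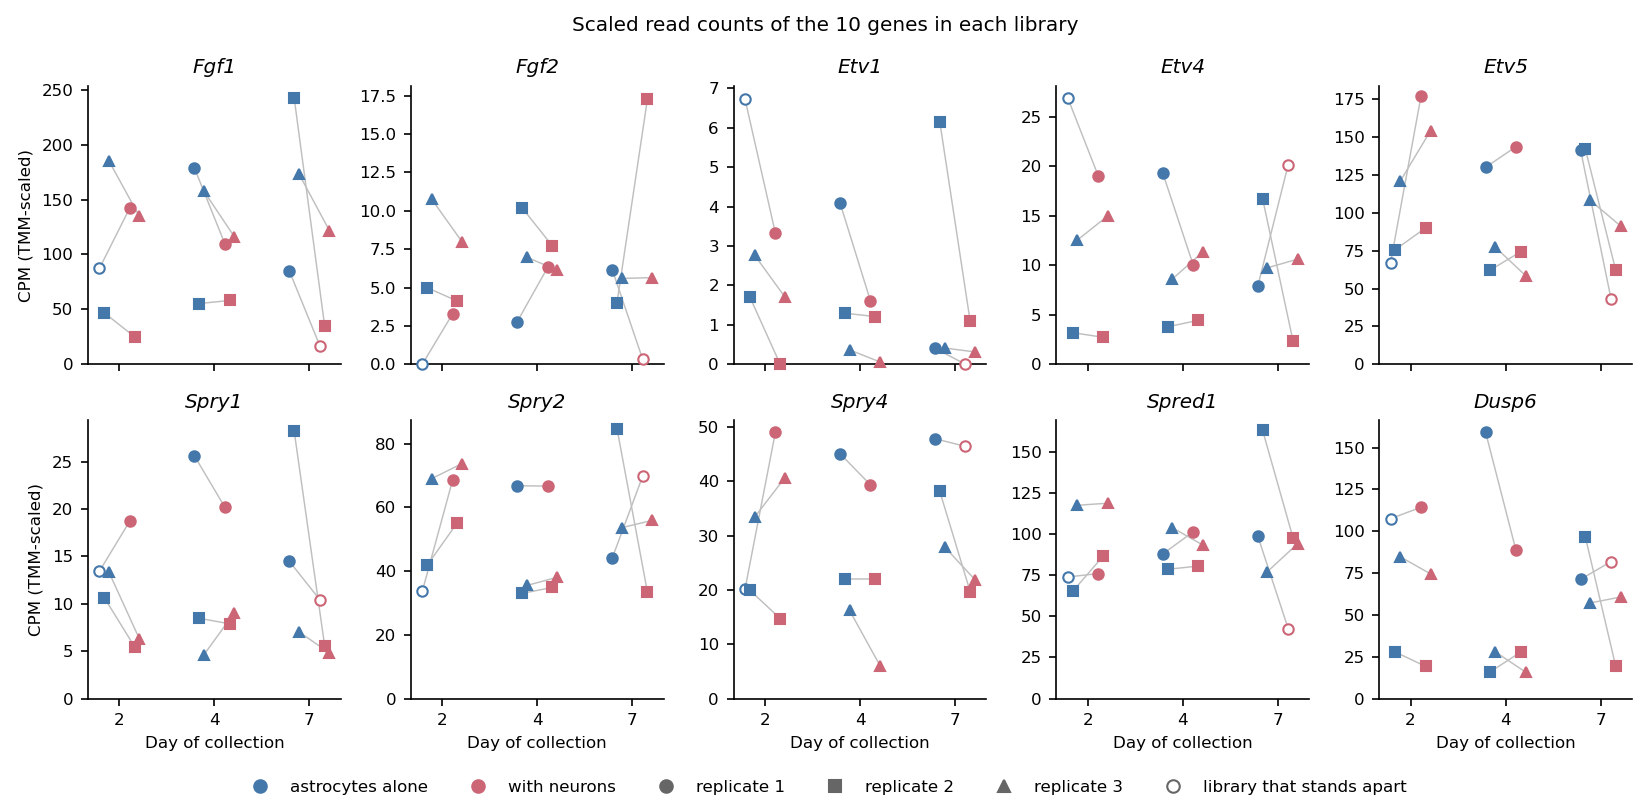
Scaled CPM of each gene by day, 1 point per library, with astrocytes alone in blue and co-cultures in red, marker shape for the replicate number, grey lines joining pairs and open symbols for the pair of poor libraries. Etv5 at day 7 is the panel in which the co-cultures, at 43.4 to 91.4 CPM, all lie under the astrocytes alone, at 108 to 142 CPM.

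Fgf1, the acidic FGF, was lower in the day 7 co-culture within every pair. In astrocytes alone it was measured at 87.4, 46.9 and 185 CPM at day 2 (replicates 1, 2 and 3), at 179, 55.3 and 158 CPM at day 4 and at 84.7, 242 and 173 CPM at day 7. In co-cultures it was measured at 143, 25.0 and 135 CPM at day 2, at 110, 58.1 and 116 CPM at day 4 and at 16.8, 35.2 and 122 CPM at day 7. Replicate 2 was the lowest of the numbers at days 2 and 4 in both kinds of culture, whereas at day 7 alone it held the highest value of all 18 libraries. The day 7 groups overlapped, since replicate 3 of the co-culture exceeded replicate 1 alone. Means at day 7 were 57.9 CPM in co-culture and 167 CPM alone, a fitted log2 difference of -1.52 (SE 0.71). Leaving out replicate 3 of the day 7 co-culture gave -2.72, and the difference was -1.50 over 16 libraries with the replicate number in the model. Within pairs it was -2.33, -2.78 and -0.51. Reads were not shown to be counted by strand, so those of Arhgap26 and Gm5820, which overlap Fgf1 in RefSeq, cannot be told apart from it, and in bulk RNA fewer cells of a type and less RNA per cell cannot be told apart.

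At the earlier days Fgf1 did not differ beyond the spread between libraries. The fitted log2 difference was -0.11 (SE 0.71) at day 2 and -0.46 (SE 0.70) at day 4, with adjusted p of 1 and 0.999986 (edgeR quasi-likelihood test, Benjamini-Hochberg over 16539 genes). None of the genes tested passed at day 2, 4 or 7, so that the percentage called was 0 in each, and none of the 10 was called. At an unadjusted p under 0.05 there were 388, 61 and 1549 genes in edgeR, including 0, 0 and 2 of the 10, the last being Etv5 and Fgf1, from which nothing is read. DESeq2 called 22, 0 and 5 genes, and none of the 10. Of the 5 pairs of days 2 and 4 without the smallest library, Fgf1 was lower in 4, with a median log2 difference of -0.46. Counted in this way, 5 of the 10 genes (Fgf1, Fgf2, Etv1, Spry1 and Dusp6) were lower in at least 4 of the 5 pairs, against 22% of all genes tested.

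Fgf2, the basic FGF, was low in every library and showed no common direction. Astrocytes alone had 0, 4.99 and 10.7 CPM at day 2, 2.78, 10.2 and 6.97 CPM at day 4 and 6.16, 4.01 and 5.59 CPM at day 7. Co-cultures had 3.29, 4.12 and 7.97 CPM at day 2, 6.31, 7.71 and 6.14 CPM at day 4 and 0.336, 17.3 and 5.65 CPM at day 7. The 0 is that of the smallest library, where 3 reads would already be 20.2 CPM, and 0.336 CPM is under the floor of the other poor library. Fitted log2 differences were -0.39 (SE 0.90), 0.02 (SE 0.87) and 0.58 (SE 0.87) at days 2, 4 and 7. The high value of 17.3 CPM coincided with the highest value of Nudt6, which overlaps Fgf2 on the genome and had 30.8 CPM (1242 reads) in that library, and its part in the Fgf2 value was not tested. The antisense RNA Fgf2os, likewise overlapping, had 214 reads over the 18 libraries against 3143 for Fgf2.

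Etv5, an ETS factor induced by FGF in many tissues, was lower in the day 7 co-culture within every pair. Astrocytes alone had 67.2, 75.8 and 121 CPM at day 2, 130, 62.3 and 77.5 CPM at day 4 and 141, 142 and 108 CPM at day 7. Co-cultures had 177, 90.2 and 154 CPM at day 2, 144, 74.4 and 58.6 CPM at day 4 and 43.4, 62.1 and 91.4 CPM at day 7. Every day 7 co-culture was thus below every day 7 library of astrocytes alone, which held for 1 of the 10 genes and for 5.58% of all genes tested, and nothing is read from it because this contrast chose the gene. At day 2 each co-culture was above its own partner, where the first partner is the smallest library, with 10 Etv5 reads. Within pairs the log2 difference was 1.40, 0.25 and 0.35 at day 2, 0.14, 0.25 and -0.40 at day 4 and -1.70, -1.19 and -0.25 at day 7. The fitted differences were 0.64 (SE 0.41, adjusted p of 1 with edgeR) at day 2, 0.04 (SE 0.40, adjusted p of 0.999986) at day 4 and -0.99 (SE 0.40) at day 7. Over 16 libraries the day 2 value was 0.51 (SE 0.41), and with the replicate number also in the model it was 0.27 (SE 0.30) at day 2 and -0.64 (SE 0.30) at day 7.

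Over time the Etv5 means ran in opposite directions in the 2 kinds of culture. Its mean in co-cultures was 141 ± 45.1 CPM (SD, n = 3) at day 2, 92.3 ± 45.3 CPM at day 4 and 65.6 ± 24.2 CPM at day 7. In astrocytes alone it was 87.9 ± 28.8, 90.0 ± 35.6 and 131 ± 19.3 CPM at the same days. The day 2 mean of astrocytes alone and the day 7 mean of co-cultures each include a poor library. From day 2 to day 7, astrocytes alone rose in replicates 1 and 2 but fell from 121 to 108 CPM in replicate 3. Co-cultures fell in every replicate number over these days, although replicate 3 rose from 58.6 to 91.4 CPM after day 4. From day 2 to day 7 the fitted log2 difference in co-cultures was -1.10 (SE 0.40), and in astrocytes alone it was 0.53 (SE 0.41). Both are given without a test, since they use the day 7 libraries that were in view when the gene was chosen.

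Etv4, of the same ETS subfamily, followed the replicate number more than the culture. Astrocytes alone had 26.9, 3.20 and 12.5 CPM at day 2, 19.3, 3.79 and 8.62 CPM at day 4 and 7.90, 16.7 and 9.75 CPM at day 7. Co-cultures had 19.0, 2.73 and 15.0 CPM at day 2, 10.0, 4.44 and 11.3 CPM at day 4 and 20.2, 2.38 and 10.6 CPM at day 7. Replicate 2 was the lowest number in 5 of 6 groups, the exception being astrocytes alone at day 7, where it was the highest. Fitted co-culture differences were 0.17 (SE 0.92), -0.30 (SE 0.83) and -0.06 (SE 0.83) on the log2 scale at days 2, 4 and 7. The day 2 value was -0.036 with DESeq2.

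Etv1, the third factor, was at the edge of detection and lower in co-culture within all 9 pairs, or 7 of 7 without the pairs that hold a poor library. Astrocytes alone had 6.72 CPM (1 read), 1.71 and 2.77 CPM at day 2, 4.09, 1.30 and 0.367 CPM at day 4 and 0.407, 6.15 and 0.413 CPM at day 7. Co-cultures had 3.32, 0 and 1.71 CPM at day 2, 1.61, 1.21 and 0.0596 CPM (1 read) at day 4 and 0, 1.09 and 0.314 CPM at day 7. Groups overlapped at every day, and read numbers per library ran from 0 to 134. The fitted log2 differences were -0.76 (SE 1.67), -0.99 (SE 1.53) and -2.19 (SE 1.59), with adjusted p of 1 and 0.999986 at days 2 and 4 (edgeR). Leaving out replicate 2 of the astrocytes alone turned the day 7 value to 0.28. Etv1 was the gene of the 10 that was lower in 5 of 5 pairs of days 2 and 4 without the smallest library, against 4.27% of all genes tested.

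Spry1, a Sprouty inhibitor, was lower in co-culture in 7 of 9 pairs. Astrocytes alone had 13.4, 10.7 and 13.3 CPM at day 2, 25.6, 8.47 and 4.63 CPM at day 4 and 14.5, 28.2 and 7.04 CPM at day 7. Co-cultures had 18.7, 5.46 and 6.31 CPM at day 2, 20.2, 7.89 and 9.06 CPM at day 4 and 10.4, 5.60 and 4.82 CPM at day 7. Replicate 1 was the highest number in every group except astrocytes alone at day 7. The 13.4 CPM of the smallest library rests on 2 reads. Fitted log2 differences were -0.27 (SE 0.72) at day 2, -0.06 (SE 0.67) at day 4 and -1.26 (SE 0.69) at day 7. Leaving out replicate 2 of the day 7 cultures alone gave -0.64 for the last.

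Spry2 and Spry4, the other Sprouty genes, had no direction shared by all days. Spry2 was measured at 33.6, 41.8 and 69.0 CPM in astrocytes alone at day 2, at 66.8, 33.0 and 35.5 CPM at day 4 and at 44.1, 84.7 and 53.6 CPM at day 7. Its co-culture values were 68.6, 55.2 and 73.7 CPM, then 66.7, 34.9 and 38.0 CPM, then 69.8, 33.4 and 55.9 CPM. At day 4 the Spry2 pairs differed by -0.0025, 0.08 and 0.10 on the log2 scale, while the numbers themselves differed, replicate 1 being the highest in both kinds of culture. Its fitted differences were 0.38 (SE 0.41), 0.05 (SE 0.39) and -0.20 (SE 0.39).

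Spry4 was measured at 20.2, 19.9 and 33.4 CPM in astrocytes alone at day 2, at 45.1, 22.0 and 16.2 CPM at day 4 and at 47.8, 38.1 and 27.9 CPM at day 7. In co-cultures it was measured at 49.1, 14.7 and 40.6 CPM at day 2, at 39.3, 22.0 and 6.08 CPM at day 4 and at 46.4, 19.7 and 21.9 CPM at day 7. Its lowest value, 6.08 CPM, was in replicate 3 of the day 4 co-culture, the library that was also lowest for Etv5, at 58.6 CPM, and for Dusp6, at 15.9 CPM, among the 16. Fitted Spry4 differences were 0.45 (SE 0.61), -0.30 (SE 0.58) and -0.38 (SE 0.58) on the log2 scale.

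Spred1, a Sprouty-related inhibitor that acts with neurofibromin on RAS, had fitted differences near 0 at days 2 and 4. It was measured at 74.0, 65.2 and 118 CPM in astrocytes alone at day 2, at 88.0, 78.6 and 104 CPM at day 4 and at 98.8, 163 and 77.2 CPM at day 7. In co-cultures it was measured at 76.0, 86.5 and 119 CPM at day 2, at 101, 80.6 and 93.5 CPM at day 4 and at 42.5, 97.9 and 94.3 CPM at day 7. The day 4 pairs differed by 0.21, 0.04 and -0.15 on the log2 scale. Fitted differences were 0.11 (SE 0.37), 0.03 (SE 0.36) and -0.53 (SE 0.36).

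Dusp6, the ERK phosphatase, differed between replicate numbers more than between cultures. Astrocytes alone had 108, 27.8 and 84.8 CPM at day 2, 159, 16.1 and 28.0 CPM at day 4 and 71.3, 96.6 and 57.2 CPM at day 7. Co-cultures had 114, 19.2 and 74.6 CPM at day 2, 88.6, 27.8 and 15.9 CPM at day 4 and 81.9, 19.2 and 60.7 CPM at day 7. Replicate 1 was the highest number in every group except astrocytes alone at day 7, where replicate 2 was. Fitted co-culture differences were 0.02 (SE 0.84), -0.62 (SE 0.80) and -0.48 (SE 0.80) on the log2 scale, and the day 2 value was -0.20 with DESeq2.

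**Figure D3:**
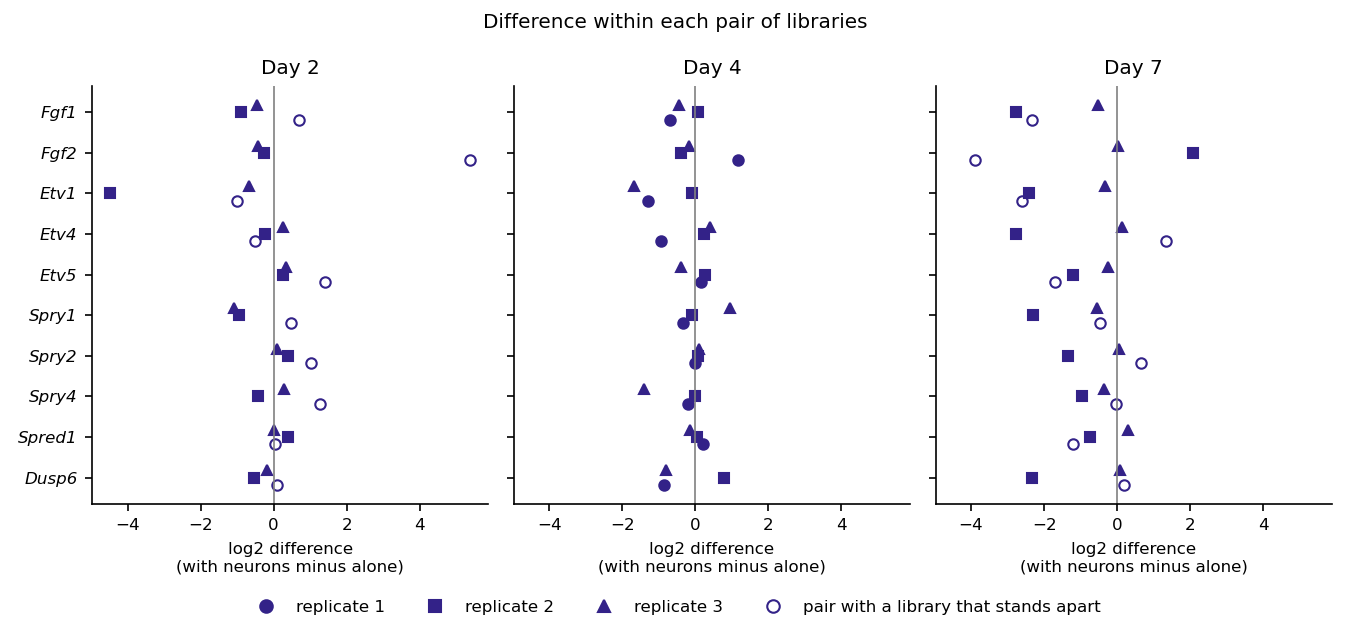
Log2 difference of co-culture minus astrocytes alone within each pair, by gene and day, with marker shape for the replicate number and open symbols for pairs that hold a poor library. At day 7 the squares of replicate 2 lie to the left of 0 for 9 of 10 genes, and at day 4 most symbols lie near 0.

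Counted over the genes, 4 of 10 were fitted lower in co-culture at day 2, 6 at day 4 and 9 at day 7, the exception at day 7 being Fgf2, against 46.6%, 51.4% and 49.8% of all genes tested. The first count was 7 with upper-quartile scaling, and the second was 10 with median-ratio scaling, upper-quartile scaling and DESeq2. The median fitted log2 difference of the 10 was 0.06, -0.18 and -0.50, against 0.04, -0.014 and 0.0041 over all genes tested. In all 3 pairs, 1 gene was lower at day 2 (Etv1), 1 at day 4 (Etv1) and 5 at day 7 (Etv1, Etv5, Fgf1, Spry1 and Spry4), against 8.48%, 14.8% and 15.8% of all genes tested. The last count rests on the contrast that chose the genes, and nothing is read from it. Higher in all 3 pairs were Etv5, Spry2 and Spred1 at day 2, none at day 4 and none at day 7, against 15.2%, 10.7% and 14.2%. These day 2 counts include the pair with the smallest library, in which 29.3% of all genes tested were lower. Without it, in both remaining pairs, 5 (Fgf1, Fgf2, Etv1, Spry1 and Dusp6) were lower and 3 (Etv5, Spry2 and Spred1) higher at day 2, against 27.8% and 22% of all genes tested.

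At day 7 the pairs of replicates 1 and 2 differed more than that of replicate 3. In replicate 2 the co-culture was lower for 9 of 10 genes, and the median log2 difference over all 10 was -1.83, against 0.02 over all genes tested in the same pair. In replicate 1, which holds a poor library, 7 of 10 were lower, with medians of -0.84 and -0.64. In replicate 3, 5 of 10 were lower, with medians of -0.12 and 0.07. Etv5, Etv1 and Spred1 had a wider drop in replicate 1 than in replicate 2, at -1.70 against -1.19, -2.60 against -2.41 and -1.21 against -0.74 on the log2 scale. Looking across the 6 libraries of replicate 2, astrocytes alone at day 7 had the highest level of 9 of the 10 genes. It exceeded the next highest of the 6 by 4.17-fold for Fgf1, 3.77-fold for Etv4, 3.59-fold for Etv1, 3.47-fold for Dusp6 and 2.64-fold for Spry1, and by 1.53- to 1.73-fold for Spry4, Spred1, Etv5 and Spry2. In replicate 3 no day 7 library was highest for any of the 10, where 5 peaked in astrocytes alone at day 2 and 5 in the day 2 co-culture. The day 7 libraries were in view when the genes were chosen, and peaks were not counted over all genes. Nothing is therefore read from these peaks or from the day 7 medians.

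Over time the 10 genes were called in none of the 6 comparisons within a kind of culture, and neither was any other gene, a percentage called of 0 in each. At an unadjusted p under 0.05 there were 28 to 2181 genes per comparison in edgeR. The 2181, or 13.2% of all genes tested, were those of co-culture from day 2 to day 7. They included 1 of the 10, Etv5, from which nothing is read. DESeq2 called 0 to 248 genes per comparison, and none of the 10. From day 2 to day 4 in co-culture, 8 of 10 genes were fitted lower, against 50.1% of all genes tested, with Fgf2 and Spry1 fitted higher. The replicate numbers did not all move this way. In replicate 2, Etv5, Spry2 and Spred1 fell, whereas Fgf1, Fgf2, Etv1, Etv4, Spry1, Spry4 and Dusp6 rose. Spry4 went from 14.7 to 22.0 CPM there and Dusp6 from 19.2 to 27.8 CPM. The fitted log2 values were -0.61 (SE 0.40) for Etv5, -0.50 (SE 0.39) for Spry2, -0.63 (SE 0.58) for Spry4 and -0.65 (SE 0.80) for Dusp6. Also fitted lower were 16 of 18 other ETS factors and ERK targets, 11 of 15 other feedback inhibitors and 14 of 23 cascade genes. For FGF receptors and co-receptors it was 8 of 17, for other FGF family genes 3 of 7 and for the EGF family 4 of 11. From day 4 to day 7 in astrocytes alone, 9 of the 10 genes were fitted higher, where 55.6% of all genes tested were fitted lower. In replicate 1, Fgf2, Etv5, Spry4 and Spred1 rose, whereas Fgf1, Etv1, Etv4, Spry1, Spry2 and Dusp6 fell. Fgf1 went from 179 to 84.7 CPM there and Spry2 from 66.8 to 44.1 CPM. The fitted log2 values were 0.54 (SE 0.40) for Etv5, 0.43 (SE 0.39) for Spry2, 0.45 (SE 0.58) for Spry4 and 0.35 (SE 0.70) for Fgf1. All had an adjusted p of 1 (edgeR), and the second comparison uses day 7 libraries that were in view when the genes were chosen.

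The replicate number, which stands for a date whose use the labels do not state, was tested as 2 terms beside the 6 groups. Dusp6 was called, with log2 levels lower by -1.86 in replicate 2 and -1.13 in replicate 3 than in replicate 1 (edgeR, adjusted p = 0.0296), and 1 of 10 genes compares with 5.76% of all genes tested. Over 16 libraries the values were -2.01 and -1.30 (adjusted p = 0.0354), again with 1 of 10 called, against 8.93% of all genes. The Dusp6 call was lost in 9 of 18 fits that left out 1 library, with adjusted p from 0.0545 to 0.102. The libraries left out in these fits were replicates 1 and 2 of both kinds of culture at day 2, replicates 1, 2 and 3 of day 4 alone, and, of the co-cultures, replicate 1 of day 4 or replicate 2 of day 7. Of the 10 genes, 4 were called when replicate 2 of day 7 alone was left out, and 2 when replicate 1 of that group was. The share of all genes called in these fits is not given here, so nothing about the 10 genes is read from these counts. Etv4 had -1.82 and -0.56 (adjusted p = 0.10 with edgeR), Spry1 -0.90 and -1.32 (0.126), Spry4 -0.94 and -0.93 (0.156) and Fgf1 -0.65 and 0.64 (0.181). Spred1, at 0.25 and 0.38, and Spry2, at -0.44 and -0.21, differed least between numbers, with adjusted p of 0.663 and 0.645 (edgeR).

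From library to library some of the genes moved in company and others did so only loosely. Correlations were computed over the 16 libraries on log2 CPM after subtracting the mean of each replicate number, and are given as a description without p, since these libraries share groups and dates and the genes share library scaling. Etv5 had a Pearson r of 0.88 with Spry2 (Spearman's rho 0.83), 0.84 with Dusp6 (rho 0.72) and 0.81 with Spry4 (rho 0.74). Dusp6 had 0.84 with Spry2 (rho 0.82) and 0.83 with Spry4 (rho 0.75). Without the 2 libraries farthest from the median of the first gene named, these 5 values were 0.78, 0.74 and 0.72 for Etv5, and between Spry2 and Dusp6 and between Spry4 and Dusp6 they were 0.73 and 0.81.

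Fgf1 kept closer to Etv4, with r = 0.90 (rho 0.78), and Spry1, with r = 0.83 (rho 0.62), than to Etv5, with r = 0.51 (rho 0.39). Without the 2 libraries farthest from the Fgf1 median these were 0.73, 0.55 and 0.34, and without the day 7 pair of replicate 2 the first 2 were 0.64 and 0.55. Fgf2 stood farthest apart, with r from -0.49 (Etv4) to 0.09 (Spred1) with the other 9. Spred1 was also only loosely tied to the genes other than Fgf2. Its r with them ran from 0.36 (Etv1) to 0.56 (Etv4), and its rho from 0.09 (Spry1) to 0.40 (Spry2). In the co-varying group, the highest and lowest Etv5 libraries of replicate 3 serve as an example, picked with the values in view. The day 2 co-culture, with Etv5 at 154 CPM, had Dusp6 at 74.6 CPM and Spry2 at 73.7 CPM. The day 4 co-culture, with Etv5 at 58.6 CPM, had Dusp6 at 15.9 CPM and Spry2 at 38.0 CPM.

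**Figure D4:**
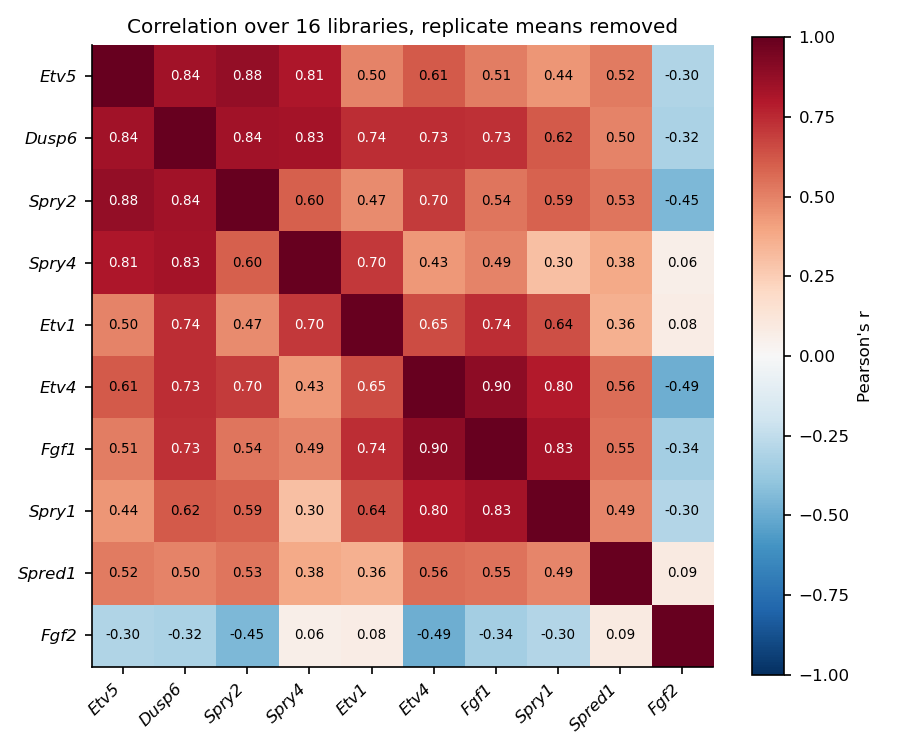
Pearson's r between each pair of the 10 genes over 16 libraries on log2 CPM after removing the mean of each replicate number. Among Etv5, Dusp6, Spry2 and Spry4 r is 0.60 to 0.88, and among Etv4, Fgf1 and Spry1 it is 0.80 to 0.90. These sets are not separate, since r between them runs from 0.30 (Spry1 and Spry4) to 0.73 (Etv4 and Dusp6). Etv1 has 0.74 with both Dusp6 and Fgf1. The row of Fgf2 has mostly negative values.

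Among 8929 genes whose mean log2 CPM was 3 or more, those whose pattern over the 16 libraries was most like that of Etv5, by the same centred r, were Dpysl2 (0.90), Spry2 (0.88), Cltb (0.88), Il17ra (0.84) and Dusp6 (0.84), so that 2 of the 5 were among the 10 genes, and Spry4 ranked 12th. For Dusp6 they were Septin4 (0.90), Sox8 (0.90), Nr4a1 (0.89), Anxa3 (0.87) and Hes1 (0.87), with Spry2, Etv5 and Spry4 at ranks 13, 14 and 18. For Spry4 they were Rest (0.93), Nos1ap (0.92), Kif13a (0.90), Stk39 (0.90) and Shroom2 (0.89), with Dusp6 at rank 27. For Fgf1 they were Fbln5 (0.94), Mtss1 (0.92), Olig2 (0.91), Asap2 (0.91) and Pde8b (0.90), with Etv4 at rank 6. Others of the 10 genes ranked far lower. Fgf2 and Etv1 were under the level cut and were not ranked. Among the members ranked, the lowest placed were Spry1 at rank 815 for Etv5, Spred1 at 623 for Dusp6, Spry1 at 2078 for Spry4 and Spry4 at 623 for Fgf1.

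**Figure D5:**
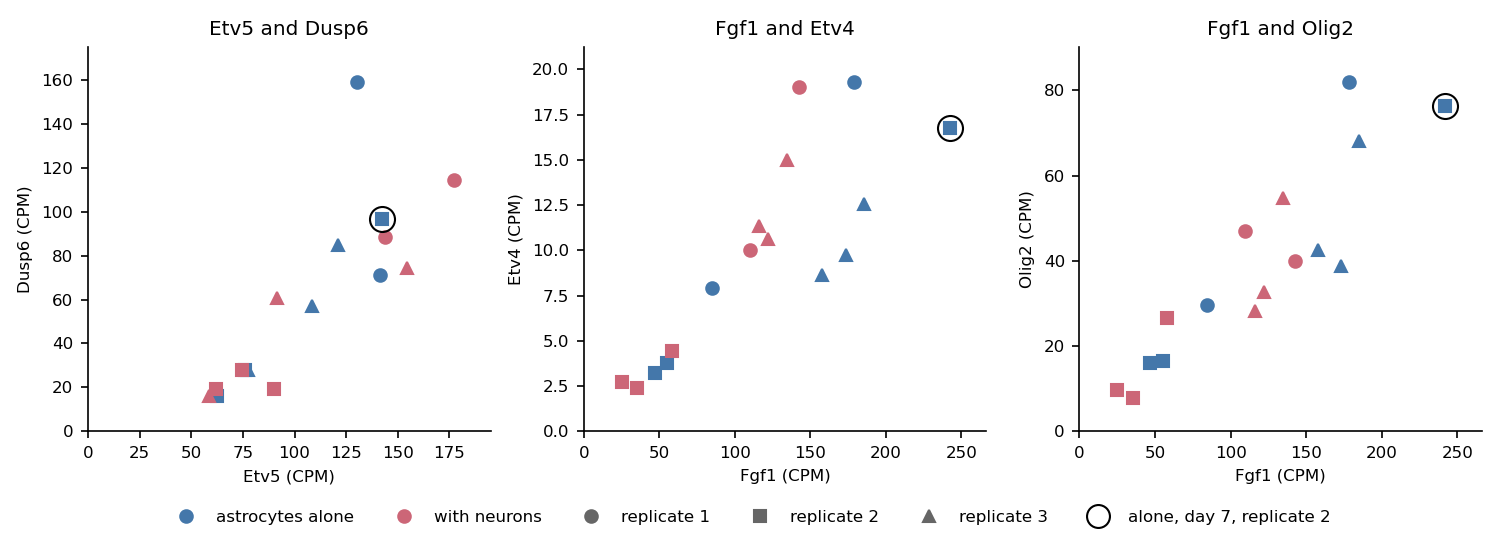
Scaled CPM of Dusp6 against Etv5, Etv4 against Fgf1 and Olig2 against Fgf1, 1 point per library for the 16 libraries, with colour for the kind of culture and marker shape for the replicate number. The ringed point, replicate 2 of astrocytes alone at day 7, has the highest Fgf1, at 242 CPM, and lies apart from the other squares in all 3 panels.

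Olig2, a transcription factor of the oligodendrocyte lineage, moved with Fgf1 at day 7. It had 29.6, 76.2 and 38.7 CPM in astrocytes alone and 3.19, 7.78 and 32.7 CPM in co-culture, where Fgf1 was lowest in the same 2 co-cultures. Its r with Fgf1 was 0.82 without the day 7 pair of replicate 2. The 11 oligodendrocyte lineage markers summed to 130 to 434 CPM in astrocytes alone and 95.7 to 234 CPM in co-culture at day 7. Olig1 had 66.2, 308 and 202 CPM of these sums in astrocytes alone and 66.4, 26.5 and 103 CPM in co-culture at day 7, while Cnp had 41.8 CPM in the co-culture of replicate 2. Sox10, a defining marker of the lineage, reached at most 0.599 CPM, and the myelin genes Mag and Mog had in all 1 and 61 reads without neurons and 11 and 13 reads with them. The part of Olig2-positive cells in the Fgf1 difference was not tested.

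Microglia and macrophage markers, 14 genes, also differed at day 7, at 6.16, 211 and 11.3 CPM summed in astrocytes alone and 256, 427 and 9.33 CPM in co-culture, with 13 of 13 tested genes fitted higher. Higher in all 3 pairs was 1 of the 13, against 14.2% of all genes tested. The 256 CPM is that of a poor library, in which 8 of the 14 genes had a read. Cd68 had 142 CPM and Laptm5 73.0 CPM there, against at most 10.3 and 56.1 CPM in the 16 libraries. The higher sums were in the pairs of replicates 1 and 2, the same in which Fgf1 and Etv5 were lower by more than 1 on the log2 scale, and its part was not tested. The 12 neuron markers summed to 158 to 295 CPM alone and 194 to 278 CPM in co-culture at day 7, and 7 of 8 tested were fitted higher, with a median log2 difference of 1.02. Stmn2 and Map2, with means of 129 and 116 CPM, were read in every library of both kinds of culture. Dcx, a marker of young neurons, had 6 reads over the 9 libraries without neurons and 496 over the 9 co-cultures, and Nefl, a neurofilament gene, 0 and 197. The nuclear marker Rbfox3 had at most 0.269 CPM in any library. The part of neuronal RNA in the results was not tested. Endothelial Cldn5 and mural Kcnj8 had no read in any library, whereas the mural genes Acta2 and Pdgfrb had means of 306 and 72.8 CPM. Summed ranges at day 7, alone and in co-culture, were 130 to 402 and 42.0 to 210 CPM for 12 endothelial and mural markers, 42.1 to 105 and 27.7 to 116 CPM for 8 meningeal fibroblast markers and 26.1 to 55.9 and 30.7 to 94.3 CPM for 8 markers of dividing cells. No marker of any list was called at any day.

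The rest of the pathway, from lists of related genes, likewise held no called gene. FGF receptors and their co-receptors were expressed, with 17 of 19 tested, of which 6, 6 and 9 were fitted lower in co-culture at days 2, 4 and 7. The receptor Fgfr1 had a mean of 433 CPM (289 to 535 over 16 libraries) and log2 differences of 0.0038 (SE 0.35), 0.27 (SE 0.34) and -0.41 (SE 0.34). The heparan sulfate proteoglycans Gpc4 and Sdc4, with means of 1110 and 668 CPM, had -0.47 (SE 0.50) and 0.19 (SE 0.49) at day 7. Of 20 other FGF family genes 7 were tested, with 5, 4 and 4 fitted lower, and the highest were Fgf12 at a mean of 5.68 CPM, Fgf13 at 4.75 CPM and Fgf18 at 2.19 CPM. Fgf12 and Fgf13, like Fgf11 and Fgf14, encode intracellular FGF homologous factors, which are not secreted ligands, whereas Fgf18 encodes a secreted ligand. Fgf8, Fgf10, Fgf3, Fgf4 and Fgf6 had no read in any library.

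Adaptors and kinases of the ERK cascade were all tested, with 6, 10 and 14 of 23 fitted lower at days 2, 4 and 7. Ptpn11, the phosphatase SHP2 that relays receptor signals, had a mean of 270 CPM and a day 7 log2 difference of -0.47 (SE 0.29), and the kinase Braf 156 CPM and 0.15 (SE 0.36). Of the other feedback inhibitors, 15 of 18 were tested and 3, 11 and 10 were fitted lower. Nf1, the RAS inactivator neurofibromin, had -0.19 (SE 0.33) at day 7, the receptor inhibitor Lrig1 -0.46 (SE 0.39) and Rasal2 -0.10 (SE 0.39).

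Other ETS factors and ERK targets, all 18 tested, had 8, 10 and 8 fitted lower. Ccnd1, cyclin D1, with a mean of 1539 CPM, had 0.17 (SE 0.72), -0.58 (SE 0.72) and -1.10 (SE 0.73) at days 2, 4 and 7. The immediate early gene Fos had -0.32 (SE 0.66) at day 7 and Fosl2 0.27 (SE 0.72). EGF family ligands and receptors, which feed the same cascade, had 11 of 13 tested with 3, 5 and 5 fitted lower. Their ligand Hbegf had -1.23 (SE 0.69) at day 7, Nrg1 -0.23 (SE 0.64) and the receptor Egfr -0.10 (SE 0.45). At day 7, the median log2 difference was -0.36 over the other FGF family genes, -0.04 over receptors and co-receptors and -0.08 over the cascade genes. It was -0.10 over the other inhibitors, 0.14 over the other ETS factors and targets and 0.15 over the EGF family. For the 10 genes it was -0.50, in the contrast that was in view when they were chosen. Nothing is read from its distance to the other lists.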

How the data were processed

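The authors deposited raw read counts per Entrez gene for 18 libraries, made with Subread and featureCounts on mouse build mm9, per the submitters' processing notes; versions and strand use were not given in the sources used here. Per the labels' protocols, total RNA was depleted of ribosomal RNA and turned into libraries with SMARTer low-input kits, 6 being pooled for sequencing on an Illumina HiSeq. Columns were matched by name, and 17 columns of correlations between libraries were not used. Symbols came from RefSeq for 24191 of 26301 genes, and exon lengths from GENCODE (GRCm38), which is not the authors' gene model.

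Counts were analysed in R 4.3.3 with edgeR 4.0.16 (quasi-likelihood F test) on 6 group means over all 18 libraries, with TMM scaling, filterByExpr and Benjamini-Hochberg adjusted p under 0.05. Standard errors were derived from the F statistic. Log2 CPM used a prior count of 2. The median biological coefficient of variation was 0.569. The 10 genes and the lists were chosen with earlier results of these data known. Named beyond the 10 are the 3 genes of highest mean CPM in each pathway list (called ones first, of which there were none; 1 is not reported here) and the 5 genes most correlated with Etv5, Fgf1, Dusp6 and Spry4; any other name was picked with its values in view. The labels do not say whether replicates came from different animals. The p-values therefore reflect only how far these libraries differ, which may be technical. Replicates of a group differed beyond sampling noise. Replicate numbers share a date, so samples were paired by number. Deviations from group means correlated at 0.108 to 0.469 within a number and day. Between numbers they correlated at -0.346 to -0.0102, which adds no separate support, since deviations from a mean of 3 libraries cancel within a group. The main fit has no term for the pairs. Alternatives were DESeq2 1.42.0, other scalings, no filter, the replicate block, and leaving out libraries. The procedure was tested on simulated data.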

Additional observations from a re-analysis of the deposited data

Results flagged for a closer look

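Etv5 was higher in co-culture in 3 of 3 pairs at day 2 and lower in 3 of 3 pairs at day 7, and it is given here because the pairs of these days moved in opposite directions. The difference between the fitted co-culture effects, day 7 minus day 2, was -1.63 on the log2 scale (SE 0.57). This is a description and the difference was not tested, since the day 7 libraries were in view when the gene was chosen. At each of these days 1 pair holds a poor library.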

How the results depend on the processing

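None of the 10 genes was called for co-culture or time under any alternative run. With the replicate block the day 7 log2 difference was -0.98 for Etv5 and -1.93 for Fgf1, and the block changed no call of the 10. Over all genes, where edgeR without the block called 0, the block called 0, 0 and 1 at days 2, 4 and 7, and 16 libraries with the block called 16, 0 and 18. Upper-quartile scaling moved the median of all genes at day 7 from 0.00411 to -0.147 on the log2 scale. The number fitted lower at day 2 was 7 with upper-quartile scaling (2 to 7 without 1 replicate), and at day 4 it was 10 with median-ratio scaling, upper-quartile scaling and DESeq2 (2 to 9 without 1 replicate). Lower in 3 of 3 pairs at day 2 were 2 genes with median-ratio and 3 with upper-quartile scaling, and at day 4 there were 2 with upper-quartile scaling. The number of the 10 called for replicate number ran from 0 to 4 without 1 library, given without the share of all genes, and nothing is read from it. The causes were not tested. Chosen after seeing the data were leaving out a whole replicate number, the pair counts under other scalings, correlations without the day 7 pair of replicate 2, the replicate number test on fewer libraries, and the day 2 pair counts without the smallest library.

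Signs turned at day 2 for Dusp6 (median-ratio -0.11, upper-quartile -0.20, no filter -0.015, DESeq2 -0.20, replicate block -0.21, 16 libraries with the block -0.37), Etv4 (upper-quartile -0.017, DESeq2 -0.036, block -0.0058), Spred1 (upper-quartile -0.032) and Spry4 (16 libraries with the block -0.017). At day 4 they turned for Fgf2 (median-ratio -0.013, upper-quartile -0.038, no filter -0.0080, DESeq2 -0.013), Etv5 (-0.018, upper-quartile -0.028, DESeq2 -0.018), Spry2 (-0.0042, upper-quartile -0.018, DESeq2 -0.0041), Spred1 (-0.017, upper-quartile -0.039, DESeq2 -0.017) and Spry1 (block 0.12, 16 libraries with the block 0.12). Without 1 replicate, day 2 values ran from -0.56 to 0.71 for Fgf1, -0.85 to 0.36 for Fgf2, -0.54 to 0.62 for Etv4, -1.08 to 0.068 for Spry1, -0.13 to 0.46 for Spred1 and -0.58 to 0.42 for Dusp6. Day 4 values then ran from -0.35 to 0.40 for Fgf2, -1.59 to 0.21 for Etv1, -0.71 to 0.47 for Etv4, -0.44 to 0.40 for Etv5, -0.60 to 0.92 for Spry1, -0.30 to 0.44 for Spry2, -0.99 to 0.23 for Spry4, -0.11 to 0.16 for Spred1 and -1.63 to 1.00 (0.997) for Dusp6. Depth limits Etv1 and Fgf2, whose values in the poor libraries lie at or under the floor.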
